A study of Mus musculus with 3 samples.

Results

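Members of the membrane-spanning 4A (MS4A) family were examined in mouse macrophages. The 7 genes Ms4a4a, Ms4a4c, Ms4a6b, Ms4a6c, Ms4a6d, Ms4a7 and Ms4a14 were taken by symbol, from 19 annotated genes whose symbol starts with Ms4a and 55536 annotated genes in all. The cells were primary macrophages that had been derived from the bone marrow of C57BL/6J mice in culture. All 3 libraries received the same treatment. Lipid A, the moiety of bacterial lipopolysaccharide recognised by Toll-like receptor 4, was given at 100 ng/ml over 12 h, washed out over 12 h and given again at 100 ng/ml over 25 min. RNA of the cytosolic fraction, 1 µg a library, was depleted of ribosomal RNA and sequenced. The labels record neither the sex nor the age of the animals. They number the libraries as biological replicates 1 to 3 from separate biosamples with 1 donor entry, so each SD is a spread between these samples and may be technical in part or in whole. With 1 group and no untreated or nuclear library analysed here, no response to Lipid A could be measured, and what follows describes levels, their order and their spread.

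Most MS4A proteins are small membrane proteins with several membrane-spanning segments, and some sit beside immune receptors at the cell surface or in endosomes. The best known members mark single lineages: Ms4a1 encodes CD20 of B cells, and Ms4a2 encodes the beta chain of the high-affinity IgE receptor of mast cells and basophils. A separate set is expressed in monocytes and macrophages, among them Ms4a4a, whose protein associates with the beta-glucan receptor dectin-1 (Clec7a), and Ms4a7, a marker used for tissue macrophages.

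Total expected counts were 55517261, 21311556 and 45635014 in replicates 1, 2 and 3, so low genes were least precise in replicate 2. Nuclear protein-coding genes held 29.6%, 40.4% and 34.8% of the TPM, a level in which the reads of a gene are divided by its length and scaled so that each library sums to 1000000. Levels of different genes are therefore compared in TPM. Libraries are compared in protein-coding CPM, in which expected counts are scaled so that nuclear protein-coding genes sum to 1000000. Each of the 7 macrophage markers Adgre1, Csf1r, Cd68, Lyz2, Itgam, Mertk and Fcgr1 was above 1 TPM in every library, and Lyz2, which encodes lysozyme, was at 3737 ± 895 TPM (SD, n = 3). Nuclear noncoding RNAs were not spread evenly. Malat1, which is retained in the nucleus, was at 8329 protein-coding CPM in replicate 1, 3480.5 in replicate 2 and 1444 in replicate 3.

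The 7 genes lie in 1 cluster on chromosome 19, within 304 kb at chr19:11301249-11604849 (build mm10, GENCODE release M21). Ms4a14, Ms4a7 and Ms4a6d are on the minus strand, and Ms4a4a, Ms4a4c, Ms4a6c and Ms4a6b on the plus strand. The interval holds 17 annotated genes, of which 10 are protein-coding. The other coding genes in it were far lower: Ms4a4b at 1.80 ± 0.720 TPM, Gm8369 at 2.32 ± 0.193 and Ms4a4d at 0.203 ± 0.101 (SD, n = 3). Ms4a14, Ms4a7, Ms4a4a and Ms4a4c followed one another with no such low coding gene between them. From Ms4a4c to Ms4a6d each pair of neighbouring members had a low coding gene between them, Ms4a4b, Gm8369 and Ms4a4d in turn.

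**Figure D1:**
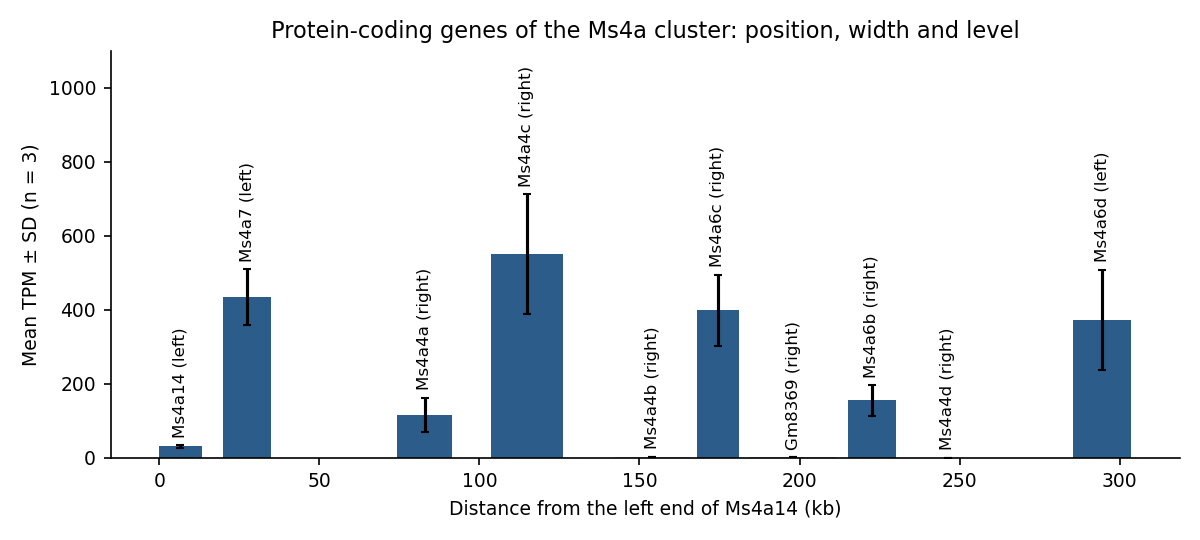
Mean TPM with SD over 3 libraries (y axis) of the 10 protein-coding genes of the cluster, drawn at their position and width in kb from the left end of Ms4a14 (x axis), with the direction of transcription in brackets. Ms4a4b, Gm8369 and Ms4a4d, at 1.80, 2.32 and 0.203 TPM, are not visible as bars between neighbours above 100 TPM.

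Promoter sequences are shown for Ms4a6c and Ms4a6b, whose start-site windows share a stretch, and for Ms4a7, as the other gene whose window held the same spaced pattern. RefSeq start-site windows (build GRCm38.p6, 250 bases before to 50 after the start) were found for 6 of the 7 genes: Ms4a4a, Ms4a4c, Ms4a6b, Ms4a6c, Ms4a14 and, with 2 start sites, Ms4a7. The windows of Ms4a6c (chr19:11469118-11469417, plus strand) and Ms4a6b (chr19:11518309-11518608, plus strand) were 89.0% identical over 218 aligned bases, with an exact run of 48 bases. Both held the 8-base pattern GAAANNGA, the core that interferon regulatory factors recognise, and the 5' window of Ms4a7 (chr19:11336097-11336396, minus strand) held it on the other strand. The inner window of Ms4a7 (chr19:11334646-11334945, minus strand), which is not printed, also held it, 148 bases before its start site. Capitals mark these matches, and each sequence is written 5' to 3' on the strand of its gene.
Ms4a6c: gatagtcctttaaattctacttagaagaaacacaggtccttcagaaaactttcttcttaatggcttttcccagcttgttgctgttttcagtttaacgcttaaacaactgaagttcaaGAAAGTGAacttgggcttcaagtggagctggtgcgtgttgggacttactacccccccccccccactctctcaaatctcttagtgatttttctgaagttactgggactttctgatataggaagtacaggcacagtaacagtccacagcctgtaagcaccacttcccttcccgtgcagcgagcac
Ms4a6b: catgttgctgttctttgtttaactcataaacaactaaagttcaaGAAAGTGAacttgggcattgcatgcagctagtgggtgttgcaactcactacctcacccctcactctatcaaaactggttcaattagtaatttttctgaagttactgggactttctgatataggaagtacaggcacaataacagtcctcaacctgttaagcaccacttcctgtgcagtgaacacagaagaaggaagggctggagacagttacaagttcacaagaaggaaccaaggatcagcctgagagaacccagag
Ms4a7: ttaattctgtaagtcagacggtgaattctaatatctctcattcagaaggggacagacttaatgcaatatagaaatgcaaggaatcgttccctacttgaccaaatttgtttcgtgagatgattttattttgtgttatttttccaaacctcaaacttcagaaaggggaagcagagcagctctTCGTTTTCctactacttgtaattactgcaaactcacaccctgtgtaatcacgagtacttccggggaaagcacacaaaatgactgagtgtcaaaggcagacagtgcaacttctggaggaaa
The match began 133 bases before the start site in Ms4a6c, 206 before it in Ms4a6b and 70 before it in the window shown of Ms4a7. The pattern is common: 20.9% of 32544 distinct promoter windows of the same length held it on either strand, against 3 of the 6 genes here. Here and below the share is per window and the count is of genes, and Ms4a7 entered with 2 windows. The windows of Ms4a6c and Ms4a6b are alike and held the same letters, so their matches are not independent. The longer interferon response element was in 3.45% of all windows and in 0 of the 6. The NF-kB site pattern was in 20.8% of all windows and in Ms4a4a and Ms4a6c. The AP-1 site TGANTCA was in 7.79% of windows and in those of Ms4a14 and the inner start site of Ms4a7, and the TATA box TATAAA in 13.6% of windows and in Ms4a14. The gamma-activated site TTCNNNGAA, in 8.33% of windows, and the purine-box core GAGGAAG of PU.1 and other ETS factors, in 13.4%, were found in none of the 6. Patterns were searched on both strands and may overlap, and a match is a run of letters, not a measured binding site.

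All 7 genes reached 1 TPM in every library, a level that 42.1% of 22015 nuclear protein-coding genes reached. Together they summed to 1495, 2476 and 2202 TPM in replicates 1, 2 and 3, with a mean of 2058 ± 506 (SD, n = 3). As a share of the TPM of nuclear protein-coding genes this was 0.504%, 0.612% and 0.633%, so replicate 1 was lowest on both scales. In bulk RNA, fewer cells that express a gene and less RNA per cell cannot be told apart. By mean TPM summed over transcripts, Ms4a4c, Ms4a7, Ms4a6c and Ms4a6d ranked 59, 71, 82 and 86 among the 22015 nuclear protein-coding genes.

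Of the 4A genes, Ms4a4c (ENSMUSG00000024675.19, chr19:11404770-11427246) was the most abundant member in TPM summed over its transcripts. By its main coding transcript alone it was at 288 ± 83.2 TPM (SD, n = 3), the lowest mean of the upper 4 members, though the highest of them in replicate 3. In protein-coding CPM, which does not divide by length, its mean was 748 against 844 for Ms4a6c. As a gene it was at 375, 585 and 692 TPM in replicates 1, 2 and 3, a mean of 551 ± 161 (SD, n = 3), and ranked 59 among nuclear protein-coding genes. Replicate 1 was the low library here.

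Ms4a4a (ENSMUSG00000101389.1, chr19:11375523-11392790), the dectin-1 partner, was at 63.8, 153 and 132 TPM, a mean of 116 ± 46.5 (SD, n = 3). It was the member with the largest coefficient of variation between libraries, 29.3% in protein-coding CPM against a median of 12.3% over the 9604 nuclear protein-coding genes whose mean was 1 TPM or more. Replicate 1 stood below the other libraries, which lay close together.

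Among the 6-subgroup genes, Ms4a6c (ENSMUSG00000079419.4, chr19:11469366-11482192) was at 298, 488 and 411 TPM, a mean of 399 ± 95.6 (SD, n = 3). Ms4a6d (ENSMUSG00000024679.10, chr19:11586604-11604849), whose protein has been described with the complement receptor Vsig4 as a brake on the Nlrp3 inflammasome, was at 266, 524 and 327 TPM, a mean of 373 ± 135. Ms4a6b (ENSMUSG00000024677.13, chr19:11516512-11531256) was lower, at 111, 193 and 160.3 TPM, a mean of 155 ± 41.3. All 3 genes were lowest in replicate 1 in TPM, as were 58.3% of the 9604 genes.

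Ms4a7 (ENSMUSG00000024672.11, chr19:11321039-11336146) was at 351, 499.8 and 452 TPM, a mean of 434 ± 76.0 (SD, n = 3), and ranked 71. Ms4a14 (ENSMUSG00000099398.1, chr19:11301249-11314454) has the longest coding sequence of the 7 genes, 3696 bases against 651 to 741 in the main coding transcripts of the others. It was at 30.2, 34.2 and 28.2 TPM, a mean of 30.9 ± 3.04, which placed it above 81.2% of the 9604 genes. Its 3 values were the closest together of any member in TPM, and all 3 lay below every value of the other members.

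**Figure D2:**
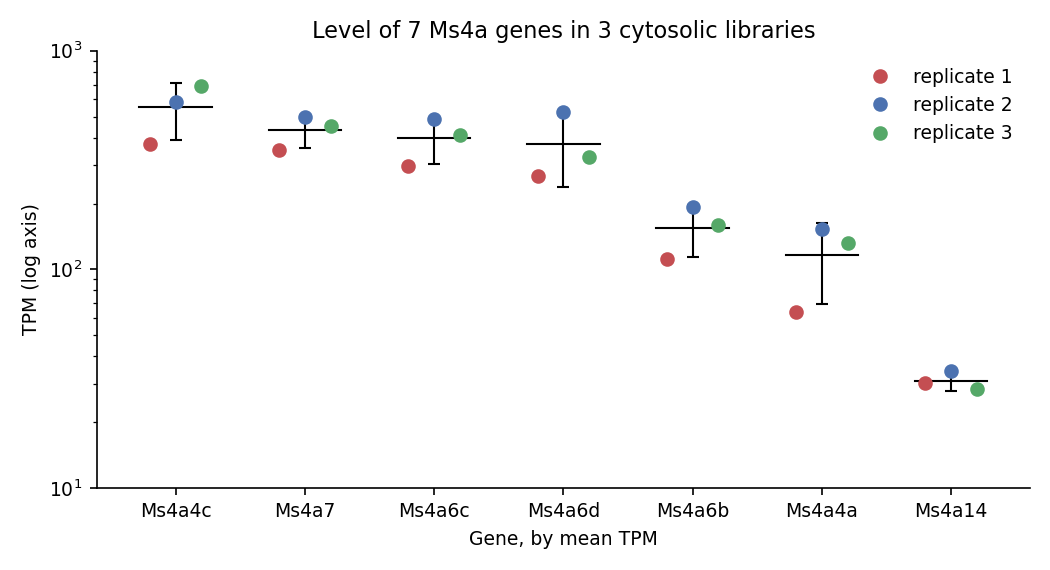
TPM on a log axis (y) of the 7 genes in order of mean TPM (x), with 1 point a library, the mean as a horizontal line and the SD as a bar (n = 3). Replicate 1 is the lowest point in every gene except Ms4a14, where replicate 3, at 28.2 TPM, is lowest.

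The order by mean TPM was Ms4a4c, Ms4a7, Ms4a6c, Ms4a6d, Ms4a6b, Ms4a4a and Ms4a14. Most neighbours in it had overlapping values. Ms4a4c was above Ms4a7 in all 3 libraries, by 1.07, 1.17 and 1.53 times, and Ms4a7 above Ms4a6c in all 3, by 1.18, 1.02 and 1.10 times, but the ranges of each pair overlapped. Ms4a6c exceeded Ms4a6d in 2 of 3 libraries, with a ratio of 0.931 in replicate 2. The pooled ranges of these 4 genes thus overlapped, while within a library Ms4a4c stood above Ms4a7 and Ms4a6d, and Ms4a7 above Ms4a6c, in all 3. A gap lay below them: Ms4a6d exceeded Ms4a6b by 2.40, 2.72 and 2.04 times with no overlap. In TPM summed over transcripts, Ms4a6b exceeded Ms4a4a in all 3 libraries, by 1.22 to 1.74 times, with overlapping ranges. Ms4a4a exceeded Ms4a14 by 2.12, 4.46 and 4.68 times with no overlap.

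Libraries were next compared in protein-coding CPM. In this unit none of the 7 genes differed by 2-fold between its highest and lowest library, a range that 4.26% of 9604 genes reached. The widest was Ms4a4a, with 73.9, 126 and 134 protein-coding CPM in replicates 1, 2 and 3, a ratio of 1.81. Ms4a4a did pass 2-fold in TPM as deposited, as 8.73% of the genes did, and with DESeq2's size factors, with a ratio of 2.01, as 4.46% did. Ms4a4c followed with 596, 721 and 929, a ratio of 1.56, and each library stood apart from the next. The third was Ms4a6d with 598, 849.9 and 636, a ratio of 1.42, where replicate 2 stood alone at the high end. The other ratios were 1.26 for Ms4a6b, 1.25 for Ms4a14, 1.20 for Ms4a6c and 1.06 for Ms4a7, against a median of 1.26 over all genes tested.

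Ms4a7 was the steadiest member, with 715, 673 and 715 protein-coding CPM and a coefficient of variation of 3.48%. Ms4a14 ran the other way from most members, with 219 protein-coding CPM in replicate 1, 179.5 in replicate 2 and 175 in replicate 3.

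Replicate 1 was the lowest library for 5 of the 7 genes, Ms4a4a, Ms4a4c, Ms4a6b, Ms4a6c and Ms4a6d, against 18.0% of the 9604 genes. With TMM factors or DESeq2's size factors the count of members was again 5, and the share of all genes was 32.6% or 33.5%. Replicate 2 was lowest for 1 of 7, Ms4a7, against 34.9%. In TPM scaled to nuclear protein-coding genes, Ms4a7 was instead lowest in replicate 1, at 1184 against 1236 and 1299.9. Ms4a14 was the 1 member highest in replicate 1, where 47.5% of all genes were highest. Ms4a6c and Ms4a6d were highest in replicate 2, which 30.3% of all genes were. The median log2 ratio of a library to the average of its counterparts was -0.27, 0.01 and 0.07 over the 7 genes in replicates 1, 2 and 3, and 0.09, -0.02 and -0.09 over all genes tested. By gene, the ratio in replicate 1 ran from -0.81 in Ms4a4a and -0.47 in Ms4a4c to 0.31 in Ms4a14. The members are neighbours in 1 cluster, and the similar ones share sequence, so their counts are not independent.

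Other gene lists also differed in replicate 1. All 14 genes of an interferon-stimulated list were lower there than in the average of replicates 2 and 3. Of the 9604 genes tested, 3154 were lower there in the same way. The median log2 ratio of the interferon-stimulated list was -0.47 in replicate 1 and 0.45 in replicate 3. Rsad2, which encodes the antiviral enzyme viperin, was at 3826, 4665 and 6483 protein-coding CPM, and Ifit2, an antiviral RNA-binding gene, at 4535, 6890.1 and 7448. Irf7, at 1816, 1807 and 2988, and Isg15, at 457, 375 and 883, were instead lowest in replicate 2. The nuclear RNA list had a median log2 ratio of 2.05 in replicate 1. The macrophage markers had a median of -0.08, with 7 of 7 lower in replicate 1, against the same 3154 of 9604 genes. Their ratios ran from -0.56 in Fcgr1 to -0.04 in Adgre1 and Csf1r. Whether any of these had a part in the low values of the Ms4a genes in that library was not tested.

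**Figure D3:**
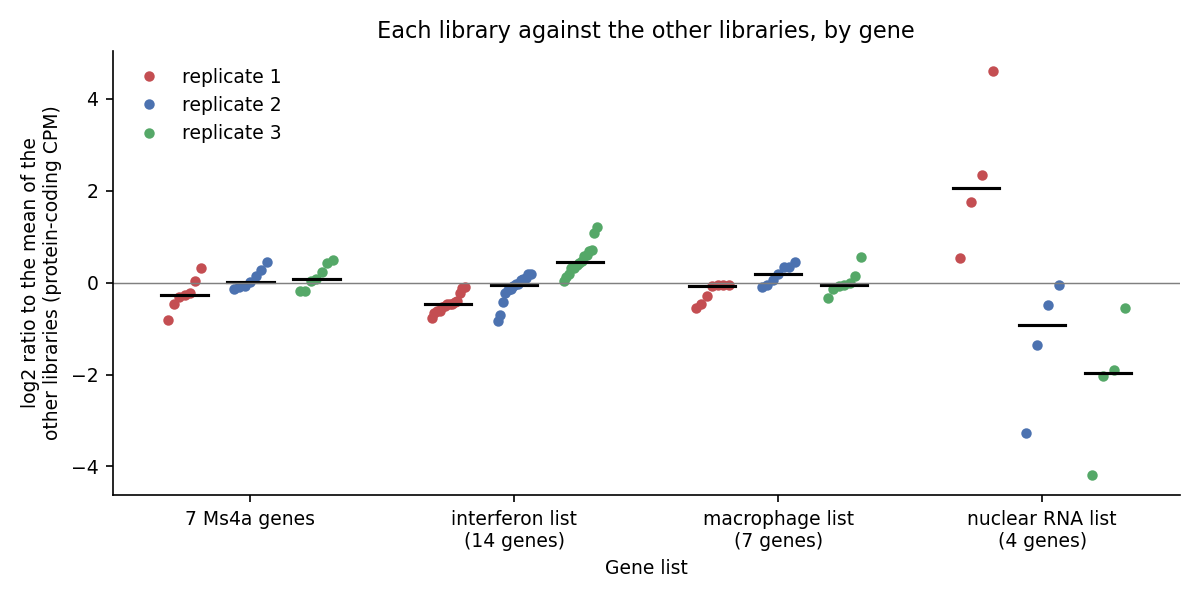
Log2 ratio in protein-coding CPM between a library and the average of the remaining libraries (y axis), 1 point a gene, for the 7 Ms4a genes, 14 interferon-stimulated genes, 7 macrophage markers and 4 nuclear RNAs whose mean was 1 TPM or more (x axis), with the median as a line. In replicate 1 the medians are -0.27, -0.47, -0.08 and 2.05.

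The shapes over the 3 libraries were closest between Ms4a6b and Ms4a6c, at a distance of 0.15 between their centred log2 protein-coding CPM values, and farthest between Ms4a4a and Ms4a14, at 0.92. For Ms4a6c, the member with the highest mean protein-coding CPM, the nearest of 6642 nuclear protein-coding genes that averaged 5 TPM or more were Vcpip1 at a distance of 0.003, Ttyh3 at 0.007 and Mpv17l2 at 0.011. These distances rest on 3 libraries, and 20.1% of the genes lay within 0.2 of Ms4a6c. The shape of Ms4a4a was rarer: 0.331% of the genes, 22 in number, lay within 0.2 of it. The nearest was Cfb, which encodes complement factor B, at 216, 370.4 and 395 protein-coding CPM; it was named after its values were seen.

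The 12 other Ms4a genes were low, and all but Ms4a4b were at or near 0. Ms4a4b, known from T cells, was the 1 gene of these with at least 1 TPM in every library, at 2.02, 1.00 and 2.39 TPM from 299, 43 and 177 expected counts. Ms4a1 had 2, 0 and 3 counts, Ms4a2 had 2, 0 and 1, and Ms4a3, a gene of granulocyte and monocyte progenitors, had 2, 0 and 0. Ms4a4d had 18, 11 and 12 counts and Ms4a8a had 1, 0 and 2. The remaining 6 (Ms4a5, Ms4a10, Ms4a12, Ms4a13, Ms4a15 and Ms4a18) had 0 counts in every library, which allows up to 3 counts, or 0.0626, 0.153 and 0.0740 protein-coding CPM, for counting error only. In all, the 12 genes held 0.147% of the counts of the 19 Ms4a genes. The related genes Tmem176b and Tmem176a, on chromosome 6, were at 41.7 ± 14.5 and 23.7 ± 11.6 TPM (SD, n = 3), on either side of the mean of Ms4a14.

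Markers of the lineages known for the undetected members were low as well. The limit used for them, 1 TPM in every library, was reached by 42.1% of all nuclear protein-coding genes. Of 5 B cell markers 1 reached 1 TPM in every library, Cd79b at 2.30 ± 1.38 TPM (SD, n = 3), and the list summed to 1.45 to 3.93 TPM, with Cd79a at 4, 0 and 1 counts. Of 5 mast cell and basophil markers 1 did, Hdc at 3.07 ± 1.24 TPM, and Fcer1a had 0 counts throughout, with a list sum of 2.19 to 4.72 TPM. Of 5 granulocyte markers 2 did, S100a9 at 6.82 ± 2.99 and S100a8 at 3.89 ± 0.475 TPM, with a list sum of 8.57 to 14.8 TPM and Ly6g at 0 counts. None of 5 T cell and none of 5 dendritic cell markers did, with sums of at most 0.220 and 0.420 TPM.

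Of 10 genes whose proteins have been described with MS4A proteins or in their pathways, 7 reached 1 TPM in every library. Of all nuclear protein-coding genes 42.1% did. Fcer1g, the signalling gamma chain shared by Fc receptors and other receptors, was at 1699 ± 245 TPM (SD, n = 3), and Tyrobp, the adaptor of Trem2, at 673 ± 71.1. Trem2, a lipid receptor of macrophages, was at 122 ± 7.13 TPM. On the dectin-1 branch, the kinase gene Syk was at 98.3 ± 17.6, Clec7a at 35.7 ± 10.6 and the adaptor gene Card9 at 9.46 ± 0.693 TPM. Clec7a was thus below Ms4a4a in every library, with 29.3, 47.9 and 29.7 TPM.

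Nlrp3 was at 13.3 ± 0.827 TPM, while Vsig4 had 0 expected counts in every library and 8, 0 and 1 estimated counts in the read-based tables. Kit, at 0.310 ± 0.221 TPM, and Tnfrsf18, which encodes the T cell surface receptor GITR, at 0.0833 ± 0.0351 TPM, were also under 1 TPM (SD, n = 3). On a list of 10 genes of alternative activation, a state in which Ms4a4a has been described, 5 reached 1 TPM in every library. This was near the 42.1% of all nuclear protein-coding genes that did. Il4ra led the list at 50.7 ± 14.8 TPM, followed by Mrc1 at 26.7 ± 5.73 TPM, and Arg1 had 6, 0 and 0 counts.

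Transcripts differed in how they carried each gene. Ms4a4a and Ms4a14 have a single annotated transcript, and Ms4a6d-201 held 99.9% of the expected counts of Ms4a6d. In Ms4a4c, the transcript Ms4a4c-201, of 1723 bases, held 91.5% ± 1.84 of the counts (SD, n = 3) and the 361-base Ms4a4c-203 held 8.04% ± 1.61. Because TPM divides by an effective length of 144, 132 and 163 bases in replicates 1, 2 and 3, that short transcript took 46.9% ± 3.24 of the TPM of the gene. By the mean of the main coding transcript alone the 4 upper members stood in another order. Ms4a6d-201 was at 371 ± 135, Ms4a6c-201 at 306 ± 77.2, Ms4a7-203 at 294 ± 43.8 and Ms4a4c-201 at 288 ± 83.2 TPM. The first place of Ms4a4c by mean thus rested on its short transcript. Ms4a4c-201 was the lowest of the 4 in replicates 1 and 2. In replicate 3 it was the highest, at 342 TPM against 326 for Ms4a6d-201, 303 for Ms4a6c-201 and 299.8 for Ms4a7-203.

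Ms4a7 was carried by Ms4a7-203, with 74.6% ± 1.69 of the counts (SD, n = 3), and Ms4a7-202, with 18.4% ± 3.62. Its coding transcript from the inner start site, Ms4a7-201, held 0.406% ± 0.114. Ms4a6b was split between Ms4a6b-201, at 50.3% ± 4.93, and Ms4a6b-205, at 40.3% ± 1.16, which have the same coding length of 732 bases and start at different positions. The 429-base Ms4a6b-202, annotated as retaining an intron, held 18.7% ± 6.23 of the TPM of the gene. Ms4a6b-201 was at 53.9, 98.2 and 96.0 TPM and Ms4a6b-205 at 29.7, 44.2 and 42.6, against 63.8, 153 and 132 for Ms4a4a. By its main coding transcript alone Ms4a6b was thus below Ms4a4a in every library. Ms4a6c-201 held 92.6% ± 1.19 of the counts of Ms4a6c.

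Transcripts annotated as retaining an intron were seen in Ms4a7, Ms4a6b and Ms4a6c at 1% or more of the counts. In Ms4a7 they held 12.0%, 4.21% and 2.02% in replicates 1, 2 and 3, and in Ms4a6b 13.7%, 9.20% and 5.37%. In Ms4a6c they held 7.05%, 6.38% and 8.69%, with replicate 3 highest. The share was thus highest in replicate 1 in 2 of the 3 genes, against 77.9% of 2974 genes that could be compared. The medians over those genes were 3.97%, 1.46% and 1.07%, and Malat1 was highest in the same library; their part in the shares of Ms4a7 and Ms4a6b was not tested.

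**Figure D4:**
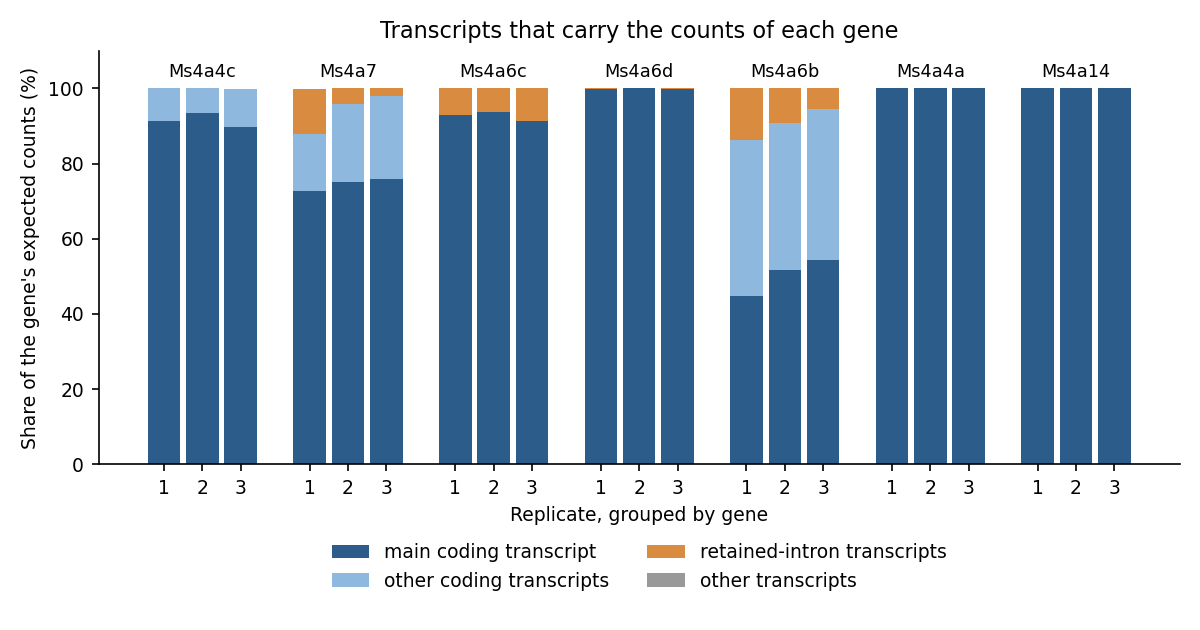
Share of the expected counts of each gene, in percent (y axis), on its main coding transcript, other coding transcripts, transcripts annotated with a retained intron and other transcripts, for replicates 1 to 3 (x axis, grouped by gene). Ms4a7 and Ms4a6b have their largest retained-intron share, 12.0% and 13.7%, in replicate 1.

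Sequence likeness limits how surely reads can be given to 1 member. In coding sequence the closest pair was Ms4a4c and Ms4a4b, 91.7% identical over 678 aligned bases with an exact run of 127 bases. Ms4a4c was also 88.3% identical to Ms4a4d over 667 aligned bases, with a run of 57. With Gm8369 it was 88.6% identical over 369 aligned bases, with a run of 40. Ms4a6b was 86.4% identical to Ms4a6c and 84.9% to Ms4a6d, and Ms4a6c 81.3% to Ms4a6d. Every other pair of the 7 members was between 68.9% and 76.8% over aligned bases, with exact runs of 8 to 16 bases. Counted over the shorter sequence, these pairs were 60.4% to 71.7% identical. Promoter windows aligned in the same way gave 62.2% to 77.3% over aligned bases, leaving out Ms4a6c with Ms4a6b and Ms4a4c with Ms4a4b. Coding values over aligned bases that lie in this range are therefore not read as likeness. Counted over the full window of 300 bases, the same promoter pairs gave 51.7% to 62.3%, and coding pairs over the shorter sequence reached higher. The promoters belong to genes of the same cluster, so they are not an unrelated reference. Over whole transcripts, windows of 50 bases shared with another gene on the same strand made up 10.5% of Ms4a6c, 8.19% of Ms4a4c, 3.57% of Ms4a6b, 2.54% of Ms4a6d and 0.306% of Ms4a7, and 0 of Ms4a4a and Ms4a14. The noncoding gene BE692007, at 10.9 ± 2.78 TPM (SD, n = 3), lies opposite Ms4a6c and matched 49.6% of its windows on the other strand. Whether counting used strand is not given in the sources used here, so reads of Ms4a6c and BE692007 cannot be told apart with certainty.

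A gene whose reads are not divided with other genes has a whole expected count. Counts were whole in every library, within 0.005, for 5 of the 7 genes, all but Ms4a4c and Ms4a6c, and for 69.6% of 9604 genes. The second deposited quantification, made from the reads, gave the members nearly the same relative level. After both were rescaled to nuclear protein-coding genes, its mean was 1.04 times the first for Ms4a4c, 0.999 for Ms4a7, 0.984 for Ms4a6c, 0.945 for Ms4a6d, 1.20 for Ms4a6b, 1.13 for Ms4a4a and 0.997 for Ms4a14. None of the 7 differed by 2-fold, and 0.530% of 8683 genes did. The low genes of the family were less settled. Ms4a4b had 1143, 214 and 465 estimated counts against 299, 43 and 177, and Ms4a12 had 68, 16 and 9 against 0 in each library.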

How the data were processed

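The authors' gene and transcript tables of each library hold, per the file headers, expected counts, TPM, the percent of a gene's level held by each transcript and, for genes, bounds of TPM (recorded here as a score and not used in a result). A second deposited transcript table holds estimated counts and TPM made from the reads. The build was mm10 with GENCODE release M21, per the deposited description files, and which programs were run is not given in the sources used here. Of 81881 identifiers, 55536 matched the annotation. Members were matched by symbol and levels taken from the gene tables. Protein-coding CPM scales expected counts so that nuclear protein-coding genes sum to 1000000; folds and log2 ratios used an offset of 0.1. Expected counts were used as deposited, and rounded to whole numbers only for edgeR 4.0.16 (TMM factors) and DESeq2 1.42.0 (size factors) in R 4.3.3, which were alternatives. Sequences were aligned globally with Biopython 1.88, and the rest was computed in Python 3.11.15 with pandas 2.3.3 and numpy 2.4.6. With 1 group, no test between conditions was made. Named genes were the 7 members, the other Ms4a genes at 1 TPM or known for a cell type, the partner genes, the 2 most abundant genes of each list or those a result turned on, and the 3 genes nearest to the member with the highest mean protein-coding CPM. Members, lists and promoter patterns were chosen with earlier results of these data known. The RefSeq protein alignment that had been planned was replaced by one of coding sequences from the annotated transcripts. Alternatives were leaving out each library, the read-based tables, other limits, other offsets and other scales. Counting intervals cover counting error only, since reads without molecular identifiers are not independent molecules. The value of 1 gene of the B cell list is not reported here.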

Additional observations from a re-analysis of the deposited data

How the results depend on the processing

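All 7 members kept at least 1 TPM in every library under each alternative tried. Leaving out 1 library moved the summed level from 2058 to between 1848 and 2339 TPM and the share of nuclear protein-coding TPM from 0.583% to between 0.558% and 0.623%. The read-based tables, in which nuclear protein-coding genes held 20.5%, 21.4% and 7.95% of TPM, gave a sum of 964 TPM, and the share of expected counts was 0.367%. Ms4a4a passed 2-fold between libraries with TPM as deposited, as 1 member against 8.73% of all genes, and with DESeq2's size factors, again as 1, against 4.46%; at 1.5-fold 2 members passed, against 19.1%. With TPM as deposited, 5 members differed 2-fold between quantifications, against 60.5% of 8683 genes. Replicate 1 was lowest for 5 members, or for 6 in TPM as deposited (58.3% of all genes) or rescaled (18.8%), settings chosen after seeing the data. The mean level of all 7 members moved by more than its SD in the read-based tables, and that of 3 (Ms4a4c, Ms4a6b and Ms4a7) with the main coding transcript alone. All 7 folds between libraries stayed within 1.5 times under the other scales and offsets. With 3 libraries of 1 group, a difference between libraries has no replicate check, and genes with a few counts, such as Ms4a1 and Ms4a2, are not resolved at the depth of replicate 2.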
